A study of Mus musculus with 9 samples.

Results

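The adipogenic and lipid storage genes are 9 genes that fat cells use to switch on their identity, take up fatty acids, coat lipid droplets and carry lipid. They were chosen by name: the regulators Pparg and Cebpa, the uptake genes Lpl and Fabp4, the droplet coat genes Plin1 and Plin2, the carbonic anhydrase Car3, and the apolipoproteins Apoe and Apod. All 9 were in the deposited table of 27370 genes, and all 9 were among the 15103 genes that passed the filter on low counts and were tested. Levels are raw counts scaled to counts per 1e+06 counts (CPM) with TMM scaling factors, given per library or as the mean ± SD of a group's 3 libraries.

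In fat cells, the nuclear receptor PPARγ and the transcription factor C/EBPα keep each other on and drive the genes of triglyceride storage. Lipoprotein lipase, the product of Lpl, frees fatty acids from circulating lipoproteins, FABP4 carries fatty acids inside the cell, and perilipins coat the droplet and control how lipases reach it. Perilipin 1 is typical of fat cells and perilipin 2 of many cell types. CAR3 is abundant in fat cells, while APOE and APOD carry lipids and are also made by cells with no fat droplet, APOE by macrophages among others. Lymph nodes lie in fat tissue, and their reticular fibroblasts are mesenchymal cells related to the precursors of fat cells.

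PolyA RNA was sequenced from 9 libraries of sorted mouse fibroblasts, 3 libraries in each of 3 groups. All mice carried Wt1CreERT2, RosatdTomato and CD64DTR and were 4 months old. The first group, FRC steady, held tdTomato-negative fibroblastic reticular cells from lymph nodes of untreated mice. The second, RPF steady, held tdTomato-positive red pulp fibroblasts from spleens of untreated mice. The third, RPF depleted, held tdTomato-positive red pulp fibroblasts from spleens of mice given diphtheria toxin, which kills cells that bear the toxin receptor under CD64 control, chiefly macrophages. The untreated groups carried the same alleles. No group was given the toxin without carrying the receptor, so an effect of the toxin itself was not tested. The tdTomato mark follows Wt1-driven recombination, so RPF here means the Wt1 lineage of the spleen. Cells had been depleted of CD45-positive cells and stained for CD45, gp38, CD31 and VCAM1 before the sort. Each library pooled 2 mice, and each group came from 6 mice and 45000 sorted cells. The labels count fewer mice in all than the groups add up to, so FRC and RPF steady share mice, and the labels used here do not say which libraries do so.

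Total counts ran from 25414645 to 43879806 per library. All 10 reticular fibroblast markers had counts in each group, with a summed level of 72350 to 78260 CPM in FRC, 24890 to 27070 in RPF steady and 14460 to 16810 in RPF depleted. By the edgeR test given below, 1 of the 10 was called higher and 7 lower in RPF steady than in FRC. On depletion 1 rose and 5 fell. Of all tested genes, 11.5% were called higher and 14.4% lower in RPF steady than in FRC, and 11.1% and 9.96% on depletion. Counts of called markers further on stand beside these same shares. Dcn, the most abundant in FRC, was at 26902 ± 2397, 30.6 ± 16.4 and 12.3 ± 3.21 CPM in the 3 groups. Pdgfrb went the other way, at 515 ± 38.6, 942 ± 27.7 and 2331 ± 106 CPM. Pdpn, which encodes the gp38 of the stain, was at 74.1 ± 3.79 CPM in FRC but had only 14 counts over the RPF steady and 8 over the RPF depleted libraries. Of 4 Y-linked genes, FRC replicate 1 and RPF steady replicate 1 had 0 and 1 counts, and the other 7 libraries 2285 to 6101. Xist was at 214.5 and 189.5 CPM in the first 2 and at 0 to 4.71 CPM in the other 7. By these genes the first 2 came from female mice. No RPF depleted library was of this kind, so sex was not balanced between RPF steady and RPF depleted. A term for libraries without Y-linked reads is among the alternative settings. The TMM factors were 0.765 to 0.827 in FRC, 1.18 to 1.20 in RPF steady and 1.05 to 1.07 in RPF depleted. Without them, the median log2 difference of all genes moved by 0.57 between RPF steady and FRC, by 0.40 between RPF depleted and FRC, and by -0.17 between RPF depleted and RPF steady.

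The stretches just upstream of Plin1, Plin2, Apoe and Apod are shown because these genes differed between RPF steady and FRC and have a RefSeq promoter entry. They come from the RefSeq promoter table (GRCm38.p6, the mm10 assembly), which matched 6 of the 9 genes. Lpl, Fabp4 and Car3 had no entry. Each stretch is on the minus strand, reads 5′ to 3′, and ends where the annotated transcripts of the gene begin. Capitals mark matches to the motifs searched on both strands, without overlap among those shown: the letters TTGCNNAA of the C/EBP family, the E-box letters CACGTG, the core promoter letters TATAAA, the letters GGGCGG of the GC box, and the direct-repeat PPAR response element.
Plin1, chr7:79732904-79733026: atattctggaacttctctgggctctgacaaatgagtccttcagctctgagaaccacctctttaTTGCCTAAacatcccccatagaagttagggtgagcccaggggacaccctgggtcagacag
Plin2, chr4:86670061-86670309: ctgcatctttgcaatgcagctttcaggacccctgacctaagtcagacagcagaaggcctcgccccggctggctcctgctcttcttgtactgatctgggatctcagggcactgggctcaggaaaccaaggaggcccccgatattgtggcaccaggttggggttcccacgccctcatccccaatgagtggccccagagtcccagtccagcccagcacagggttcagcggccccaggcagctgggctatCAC
Apoe, chr7:19699189-19699438: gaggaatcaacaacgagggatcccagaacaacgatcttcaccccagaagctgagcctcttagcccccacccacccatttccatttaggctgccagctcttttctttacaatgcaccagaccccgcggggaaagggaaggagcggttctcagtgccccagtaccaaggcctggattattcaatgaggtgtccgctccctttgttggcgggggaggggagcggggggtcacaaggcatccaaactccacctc
Apod, chr16:31314809-31315058: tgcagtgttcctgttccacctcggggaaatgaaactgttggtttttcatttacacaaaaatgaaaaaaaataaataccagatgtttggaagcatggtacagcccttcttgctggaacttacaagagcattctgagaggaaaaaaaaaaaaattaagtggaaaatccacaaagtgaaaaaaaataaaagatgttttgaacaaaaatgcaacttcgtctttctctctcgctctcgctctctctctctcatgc

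The Plin1 stretch holds 1 match to the C/EBP letters, and the Plin2 stretch ends in the first 3 letters of an E-box match that runs over the start. The Apoe and Apod stretches hold none. The full Plin1 entry holds a further match to the C/EBP letters, 58 bases upstream of its start. Another Apoe entry, not shown, holds the core promoter letters. GC content was 36.4% for Apod and 50.4% to 61.4% for the other 3. Of 32851 promoters of 300 bases in the table, 10.8% hold the C/EBP letters, 7.15% the E-box, 13.6% the core promoter letters, 35.7% the GC box and 0.0396% the PPAR element. The stretches shown are shorter, at 123 to 250 bases, so these shares do not apply to them directly. A match is a description of these letters only.

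Comparing RPF steady with FRC shows how these genes differ between tdTomato-positive fibroblasts of the spleen and tdTomato-negative ones of lymph nodes. Organ and Wt1 lineage change together here and cannot be told apart. FRC carried far more Lpl, Plin1, Car3, Apoe and Apod mRNA than RPF steady. Lpl was 228-fold and Apoe 4.55-fold lower in RPF steady. Plin2 went the other way and was 1.5-fold higher in RPF steady. Pparg, Cebpa and Fabp4 did not pass the test. By edgeR's quasi-likelihood test with Benjamini-Hochberg adjustment over all tested genes (call at adjusted p under 0.05), 1 of the 9 was called higher and 5 lower, where 25.9% of all tested genes were called, 11.5% higher and 14.4% lower. The libraries of both groups did not overlap for 6 of the 9, and for 44.6% of all tested genes.

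Comparing RPF depleted with RPF steady asks how the red pulp fibroblasts differ once CD64-bearing cells have been killed. It uses the same RPF steady libraries as the comparison with FRC, so a gene called in both does not give 2 independent results. Apoe was the only one of the 9 that passed the test, 2.10-fold lower after depletion. In this comparison 0 of the 9 were called higher and 1 lower, where 21% of all tested genes were called, 11.1% higher and 9.96% lower. Fabp4, Plin2 and Car3 also had libraries that did not overlap between the groups, so 4 of the 9 had none in common against 44.4% of all tested genes, but these 3 missed the threshold.

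RPF depleted against FRC uses the same FRC libraries as the first comparison and is not independent of it. Lpl, Plin1, Car3, Apoe and Apod were lower in RPF depleted, so 0 of the 9 were called higher and 5 lower. Of all tested genes, 35.8% were called, 16.9% higher and 18.8% lower. The libraries did not overlap for 5 of the 9 and for 50.3% of all tested genes.

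**Figure D1:**
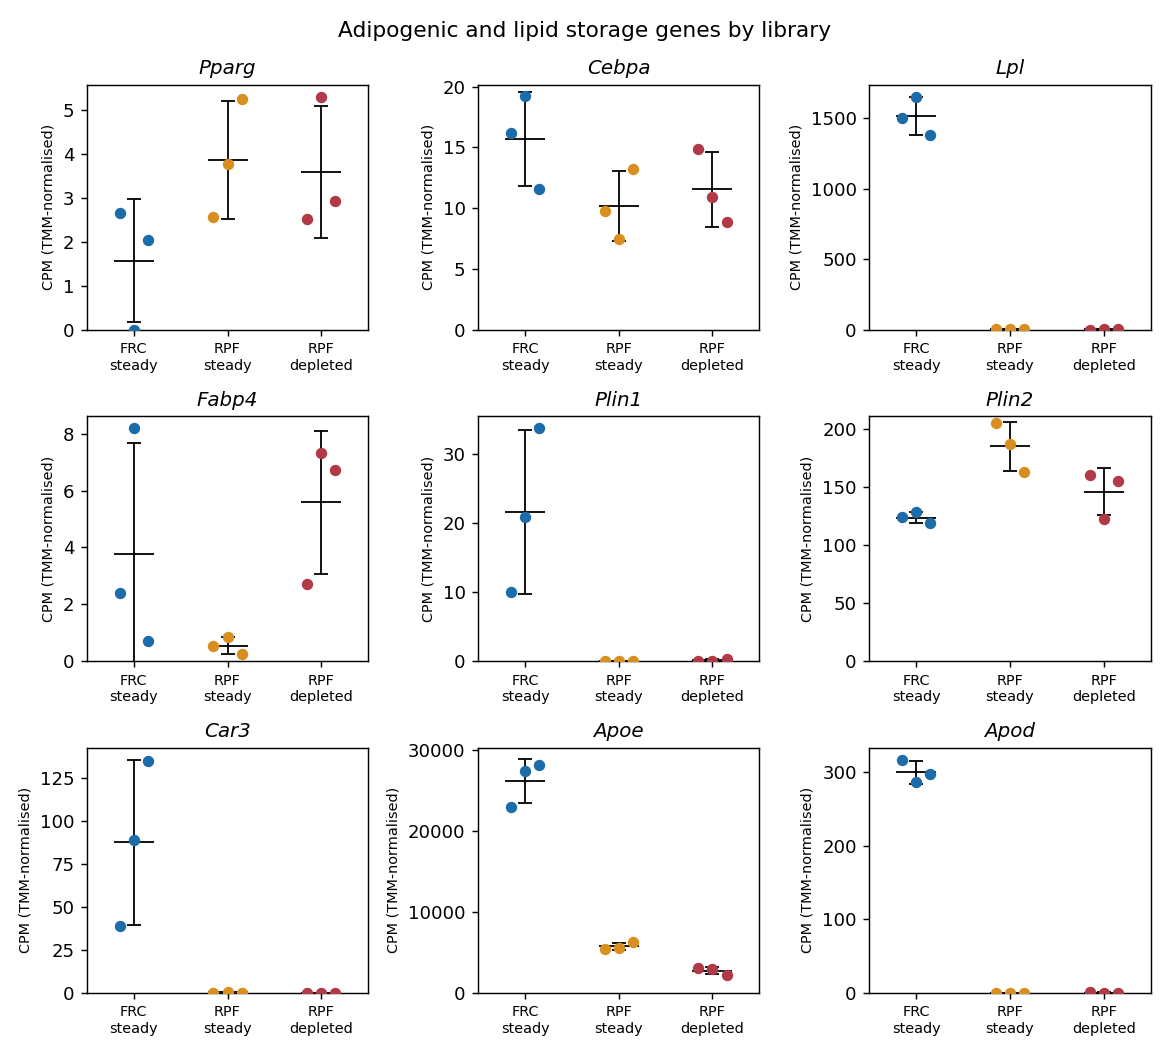
TMM-normalised CPM of the 9 genes (vertical axis, linear from 0) in each library (points) of the 3 groups, with the mean and SD (lines and bars). The FRC points of Lpl, Plin1, Car3, Apoe and Apod lie above all RPF points, while those of Pparg, Cebpa and Fabp4 overlap with the RPF steady points.

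Of the regulators, Pparg (ENSMUSG00000000440, chromosome 6, 115360951 to 115490399) encodes the receptor that commits cells to the fat lineage. In FRC replicates 1, 2 and 3 it was at 2.67, 0 and 2.06 CPM. In RPF steady it was at 2.58, 3.79 and 5.26 CPM, and in RPF depleted at 2.53, 5.32 and 2.95 CPM. The groups overlapped, and FRC replicate 2 stood alone with 0 counts beside 88 and 69 in the other FRC libraries. A count of 0 there allows up to 0.102 CPM by counting error. The log2 difference was 1.29 (SE 1.33) between RPF steady and FRC and -0.11 (SE 1.31) between RPF depleted and RPF steady, with edgeR adjusted p values of 0.543 and 0.975. With errors of this size, the data do not show that the groups are alike. Pparg shares 13176 bases with the antisense gene Gm44079, and without a stated strand setting their reads cannot be told apart.

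Cebpa (ENSMUSG00000034957, chromosome 7, 35119293 to 35121928), the partner that holds fat cells in the differentiated state, was present at a low level in all groups. It was at 16.2, 19.2 and 11.6 CPM in FRC, at 9.81, 7.50 and 13.3 CPM in RPF steady and at 14.9, 10.9 and 8.86 CPM in RPF depleted. Each group overlapped with both others. The log2 difference was -0.62 (SE 0.36) between RPF steady and FRC and 0.18 (SE 0.36) between RPF depleted and RPF steady (edgeR adjusted p = 0.259 and 0.795). Against FRC, RPF depleted differed by -0.44 (SE 0.36, edgeR adjusted p = 0.384). The antisense gene Gm45091 shares 313 bases with it.

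Lpl (ENSMUSG00000015568, chromosome 8, 68880491 to 68907448) encodes the enzyme that releases fatty acids from lipoproteins. It was at 1499, 1652 and 1383 CPM in the FRC libraries. In RPF steady it was at 7.28, 6.36 and 6.19 CPM, and in RPF depleted at 1.06, 8.26 and 4.31 CPM. All FRC libraries lay above all RPF libraries, and the RPF groups overlapped. The log2 difference of RPF steady from FRC was -7.84 (SE 0.67) at an edgeR adjusted p of 4.22e-05, and RPF depleted was 332-fold lower than FRC (edgeR adjusted p = 2.65e-05). Between the RPF groups the log2 difference was -0.54 (SE 0.52, edgeR adjusted p = 0.538). It was -1.28 without depleted replicate 2 and -0.077 without depleted replicate 1, with edgeR adjusted p values of 0.11 and 0.9.

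Fabp4 (ENSMUSG00000062515, chromosome 3, 10204088 to 10208576), the fatty acid carrier of fat cells, is also made by capillary endothelium. It was scarce and uneven, at 2.40, 8.19 and 0.716 CPM in FRC. It was at 0.532, 0.849 and 0.265 CPM in RPF steady and at 2.7, 7.31 and 6.74 CPM in RPF depleted. All 3 depleted libraries lay above all 3 RPF steady libraries, while FRC overlapped with both. The log2 difference between RPF depleted and RPF steady was 3.33 (SE 1.04), and it missed the threshold at an edgeR adjusted p of 0.0514. It passed in 7 of 19 alternative analyses, with adjusted p values from 0.00309 (DESeq2) to 0.155. Between RPF steady and FRC the difference was -2.77 (SE 1.02, edgeR adjusted p = 0.0787), and it passed with DESeq2 (adjusted p = 0.0152) and, in edgeR, without FRC replicate 3 (adjusted p = 0.038). Over the 19 alternatives the log2 difference ran from -3.25 to -1.49 and the adjusted p from 0.0152 to 0.301. The end at -1.49 and 0.301 was that without FRC replicate 2, which held 240 of the Fabp4 counts of FRC beside 79 and 24 in replicates 1 and 3. Beside this, the summed level of 10 endothelial markers was 60.9 to 79.7 CPM in FRC, 71.2 to 178 in RPF steady and 31.6 to 41.0 in RPF depleted. Of the 10, 9 had counts in FRC (Kdr at 0), 9 in RPF steady (Lyve1 at 0) and 8 in RPF depleted (Emcn and Lyve1 at 0). Of the 9 that were tested, 2 were called higher and 0 lower in RPF steady than in FRC, and 0 rose and 1 fell on depletion. In these comparisons 25.9% and 21% of all tested genes were called. The part of endothelial cells in the Fabp4 values was not tested.

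Plin1 (ENSMUSG00000030546, chromosome 7, 79720218 to 79732903), the coat protein of the large droplets of fat cells, was present in FRC at 10.05, 20.92 and 33.82 CPM. It had 2 counts in all in RPF steady, and 1, 1 and 16 counts in RPF depleted replicates 1, 2 and 3. FRC lay above both RPF groups without overlap, and the 16 counts of depleted replicate 3 stood apart from the other 5 RPF libraries. The FRC to RPF steady ratio was 1387, with a 95% counting interval of 384 to 11460 (edgeR adjusted p = 0.000815). RPF depleted was 149-fold lower than FRC (edgeR adjusted p = 0.00162). The ratio of RPF depleted to RPF steady, 9.86 with a counting interval of 2.36 to 87.6, did not pass the test (edgeR adjusted p = 0.145). Without depleted replicate 3 the log2 difference of RPF depleted from RPF steady was 0.68 instead of 2.90, and that from FRC -9.43 instead of -7.22.

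Plin2 (ENSMUSG00000028494, chromosome 4, 86648386 to 86670060), the droplet coat protein of cells in general, was the one member called higher in RPF steady than in FRC. It was at 124, 129 and 119 CPM in FRC. It was at 206, 187 and 163 CPM in RPF steady and at 161, 123 and 156 CPM in RPF depleted. The RPF steady libraries lay above all others, and RPF depleted overlapped with FRC. The log2 difference of RPF steady from FRC, 0.58 (SE 0.14), had an edgeR adjusted p of 0.0151. It was 0.50 with an adjusted p of 0.0596 without RPF steady replicate 1, and 1.16 without TMM factors. RPF depleted differed from RPF steady by -0.34 (SE 0.14, edgeR adjusted p = 0.123) and passed under 3 of 19 alternatives, at -0.44 with upper quartile scaling, -0.51 without TMM factors and -0.39 in DESeq2. From FRC it differed by 0.24 (SE 0.14, edgeR adjusted p = 0.217), and by 0.65 without TMM factors (adjusted p = 0.00624).

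Car3 (ENSMUSG00000027559, chromosome 3, 14863512 to 14872523), a carbonic anhydrase abundant in fat and muscle, was at 38.6, 89.0 and 135 CPM in FRC. RPF steady had 2, 30 and 2 counts, and RPF depleted 0, 1 and 0 counts. FRC lay above both RPF groups, and RPF steady replicate 2 held 30 of the 34 counts of its group. RPF steady was 348-fold lower than FRC (log2 -8.44, SE 0.99, edgeR adjusted p = 0.000282), and the log2 value was -10.61 without that replicate. FRC exceeded RPF depleted by a ratio of 10240 (95% counting interval 1838 to 404700, edgeR adjusted p = 9.82e-05). Between the RPF groups the ratio of steady to depleted was 31.0 with a counting interval of 5.21 to 1261 (edgeR adjusted p = 0.0775). The alternatives gave adjusted p values from 0.00526 to 0.575, and 2 of 18 passed. These were DESeq2 (adjusted p = 0.00526) and edgeR with a term for libraries without Y-linked reads (adjusted p = 0.0297).

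Apoe (ENSMUSG00000002985, chromosome 7, 19696109 to 19699188), a carrier of cholesterol and other lipids, was the most abundant of the 9 in every group. It was at 22965, 27316 and 28071 CPM in FRC. It was at 5437, 5528 and 6239 CPM in RPF steady and at 3014, 2955 and 2222 CPM in RPF depleted. The 3 groups did not overlap, and their order was FRC, RPF steady, RPF depleted. Apoe alone took 1.90% to 2.17% of all counts in the FRC libraries, 0.639% to 0.742% in RPF steady and 0.238% to 0.317% in RPF depleted. The log2 difference from FRC was -2.19 (SE 0.14) in RPF steady and -3.26 (SE 0.15) in RPF depleted, with edgeR adjusted p values of 9.17e-06 and 1.36e-06. After depletion Apoe fell by 1.07 (log2, SE 0.14) at an edgeR adjusted p of 0.000794, with a log2 difference of -0.95 to -1.24 in the 19 alternatives, all past the threshold.

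Because macrophages make Apoe, their markers are given beside it. The 14 red pulp macrophage markers summed to 2582 to 3579 CPM in FRC, 1659 to 2066 in RPF steady and 966.5 to 1330 in RPF depleted. Most of these sums was Vcam1, which the sort stained and fibroblasts express. Leaving out Vcam1 (a choice made after its values were seen), the other 13 summed to 134 to 145 CPM in FRC, 299 to 365 in RPF steady and 80.6 to 119 in RPF depleted. Most of the RPF depleted sum was Mertk, at 89.3 ± 14.2 CPM there and 84.0 ± 20.4 in RPF steady (edgeR adjusted p = 0.849). Hpgd and C1qb, the next most abundant in RPF steady, went from 50.3 ± 11.1 and 48.4 ± 8.78 to 2.27 ± 1.69 and 0.423 ± 0.709 CPM. These 3 are named after their values were seen. Of these 13, 12 had counts in FRC (Cd5l at 0), 13 in RPF steady and 8 in RPF depleted, where C1qa, Cd5l, Adgre1, Fcgr1 and Siglec1 were at 0. Of the 12 that were tested, 4 were called higher and 1 lower in RPF steady than in FRC, the lower one being Slc11a1, and 0 rose and 9 fell on depletion. The part of these cells in the Apoe differences was not tested. In bulk samples, fewer cells of a type and less RNA per cell cannot be told apart.

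Apod (ENSMUSG00000022548, chromosome 16, 31296192 to 31314808), a lipocalin that binds small lipids, was an FRC gene in these libraries. It was at 317, 286 and 297 CPM in FRC, with a coefficient of variation of 5.25%. In RPF steady it was at 0.277, 0.138 and 0.0992 CPM and in RPF depleted at 0.747, 0.189 and 0 CPM, from 23 and 33 counts in all. FRC stood apart, and the RPF groups overlapped. RPF steady was 1655-fold and RPF depleted 1007-fold lower than FRC (edgeR adjusted p = 3.25e-05 and 3.29e-05). Between the RPF groups the log2 difference was 0.72 (SE 0.93, edgeR adjusted p = 0.66), and it turned to -1.002 without depleted replicate 1, which held 26 of the 33 counts.

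The genes were ranked within a group per kilobase of the deposited median transcript length. This median over a gene's transcripts need not be the length of the mRNA present, so the order depends on it. In FRC, Fabp4 (2563.5 bases) stood below Pparg (915 bases) per kilobase but above it by CPM, at 3.77 against 1.58. In FRC, Apoe was at 31968 CPM per kilobase, Lpl at 624, Apod at 428, Plin2 at 176 and Car3 at 62.8. Plin1 followed at 16.7, Cebpa at 6.55, Pparg at 1.72 and Fabp4 at 1.47 CPM per kilobase. So the lipid carriers and Lpl stood far above the regulators and the carrier FABP4. In RPF steady, Apoe at 7019 and Plin2 at 262 CPM per kilobase were followed at a distance by Cebpa at 4.26, Pparg at 4.24 and Lpl at 2.73. The order in RPF depleted began in the same way, with Apoe at 3342 and Plin2 at 207 CPM per kilobase, then Cebpa at 4.82, Pparg at 3.93 and Fabp4 at 2.18. Among all 15103 tested genes, Apoe ranked 3 in FRC, 3 in RPF steady and 16 in RPF depleted per kilobase. Plin2 ranked 827, 418 and 714, and Lpl 230, 10032 and 10091. By CPM without the length, Apoe ranked 4, 5 and 25, Plin2 1502, 748 and 1249, and Lpl 92, 9406 and 9472.

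**Figure D2:**
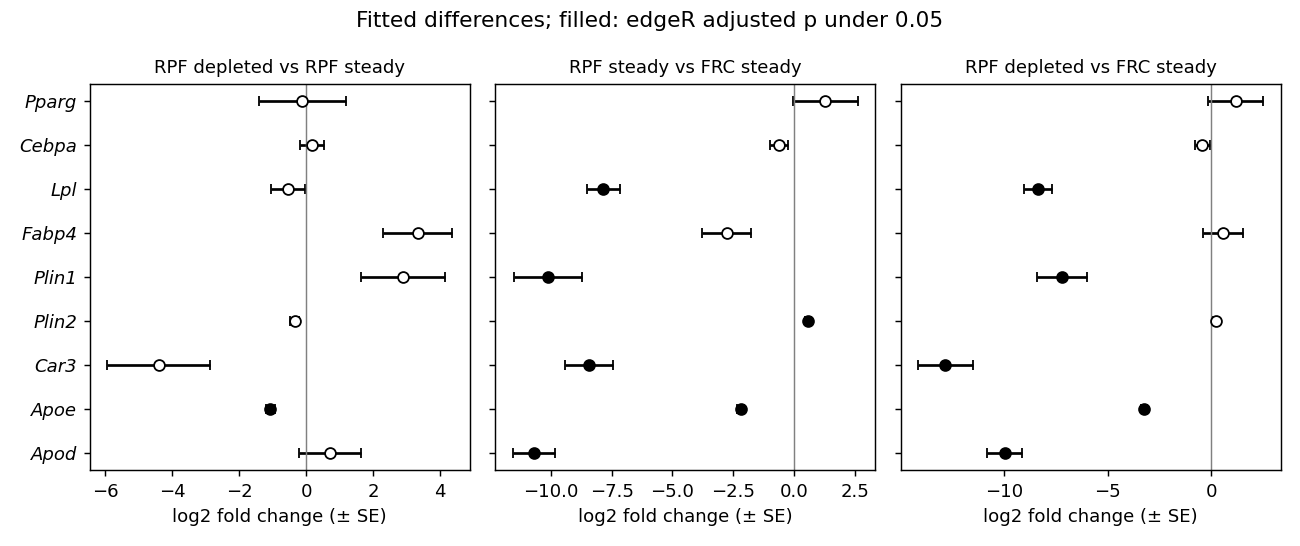
Log2 fold change with SE (horizontal axis) of the 9 genes in the 3 comparisons, from edgeR, with filled points for adjusted p under 0.05. In the left panel only Apoe is filled. The panels against FRC have Lpl, Plin1, Car3, Apoe and Apod filled to the left, Apoe the least far. For RPF steady against FRC, Plin2 is also filled, to the right.

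Plin1 and Car3 varied most among the FRC libraries of the members that were higher there, by a coefficient of variation of 55.1% each. Both were lowest in replicate 1 and highest in replicate 3. Lpl, by contrast, varied by 8.92%, Apoe by 10.6% and Apod by 5.25%. Markers of fat cells outside the 9 genes were therefore read in the same libraries. Adipoq, the hormone adiponectin, had 0, 32 and 0 counts in FRC replicates 1, 2 and 3. Cfd, the fat cell protease adipsin, had 44, 0 and 0 counts, Retn had 0, 7 and 0, and Pck1 had 0, 4 and 0. None of these 4 had a count in any RPF library. Lipe, the hormone-sensitive lipase, was at 18.9, 14.5 and 9.31 CPM and Slc2a4, the insulin-responsive glucose transporter, at 3.34, 0.0341 and 5.16 CPM in the same replicates. Of these 6, Slc2a4 was highest in replicate 3, Cfd and Lipe in replicate 1, and Adipoq, Retn and Pck1 in replicate 2, as was Fabp4.

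The 7 fat cell markers in the table outside the members summed to 14.5 to 23.6 CPM in FRC, 10.4 to 19.2 in RPF steady and 3.86 to 6.43 in RPF depleted. Of the 7, 6 had counts in FRC, 3 in RPF steady and 2 in RPF depleted. Thrsp was at 0 in FRC and in RPF depleted and at 2.83, 4.92 and 5.42 CPM in RPF steady. Without it (a choice made after its values were seen), the other 6 summed to 7.54 to 14.2 CPM in RPF steady, and the sums of FRC and RPF depleted did not move. Lipe and Slc2a4 were the most abundant of them in FRC, at 14.2 ± 4.81 and 2.84 ± 2.60 CPM. Skeletal muscle markers, read because muscle also makes Car3, summed to 2.49, 1.43 and 0 CPM in FRC replicates 1, 2 and 3. The part of fat or muscle cells in the Plin1, Car3 and Lpl differences was not tested.

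Markers of other mesenchymal cells also differed between FRC and RPF. The 8 markers of pericytes and smooth muscle summed to 2825 to 3699 CPM in FRC, 1264 to 1490 in RPF steady and 1881 to 2282 in RPF depleted, and none was at 0 in a group. Of the 8, 1 was called higher and 3 lower in RPF steady than in FRC, and 3 rose and 2 fell on depletion. Rgs5, a pericyte gene, was at 323 ± 52.8 CPM in FRC and 2163-fold lower in RPF steady (edgeR adjusted p = 2.87e-06). The other lower ones were Cspg4 and Abcc9, of which Abcc9 was the most abundant of the 8 in FRC, at 1579 ± 367 CPM. Kcnj8 went the other way, at 179 ± 61.0 CPM in FRC and 435 ± 79.0 in RPF steady. Des was at 985 ± 81.8 and 771 ± 171 CPM in these groups. After depletion Kcnj8 was at 48.4 ± 17.8 CPM, while Mcam went from 15.6 ± 2.68 to 209 ± 17.6. The 8 markers of adipocyte progenitors summed to 1761 to 2205 CPM in FRC, 1016 to 1417 in RPF steady, where Ebf2 was at 0, and 719.9 to 886.2 in RPF depleted. Of these 8, 1 was called higher and 4 lower in RPF steady than in FRC, and 1 rose and 1 fell on depletion. Pdgfra, the most abundant of them in FRC at 673 ± 68.3 CPM, was 1.88-fold lower in RPF steady (edgeR adjusted p = 0.00272). Cd34, at 462 ± 79.8 CPM in FRC, was 150-fold lower in RPF steady (edgeR adjusted p = 0.00485), and F3 50.7-fold lower (edgeR adjusted p = 1.24e-06). Ly6a went the other way, from 425 ± 83.0 CPM in FRC to 908 ± 275 in RPF steady, 2.14-fold higher (edgeR adjusted p = 0.0093). The part of such cells in the Lpl, Plin1, Car3, Apoe and Apod differences from FRC was not tested.

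**Figure D3:**
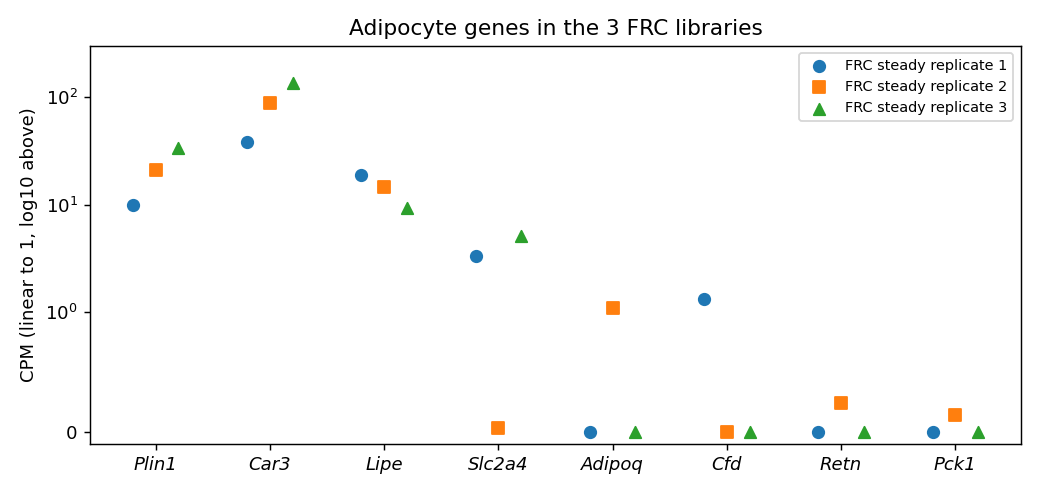
TMM-normalised CPM (vertical axis, linear up to 1 and log10 above) of Plin1, Car3 and 6 fat cell markers in the 3 FRC libraries (points by replicate). Plin1, Car3 and Slc2a4 are highest in replicate 3, Cfd and Lipe in replicate 1, and Adipoq, Retn and Pck1 in replicate 2.

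The other genes of these pathways were read from 10 lists, whose 114 distinct tested genes outside the members gave 16 called higher and 28 lower in RPF steady against FRC, beside 11.5% and 14.4% of all tested genes. Their median log2 difference was -0.30, beside -0.02 over all tested genes. Between RPF depleted and RPF steady 15 were called higher and 20 lower, beside 11.1% and 9.96% of all tested genes, with a median of -0.20 beside -0.09. The counts of each list below stand beside these same shares of all tested genes. The balance in the first comparison depends on the scaling: without TMM factors 30 were called higher and 23 lower, and on depletion 13 and 24. Without RPF steady replicate 2 or 3, 13 and 12 of the list genes were called lower on depletion in place of 20.

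Of 16 tested adipogenic regulators, 2 were called higher and 7 lower in RPF steady than in FRC, and after depletion 3 rose and 2 fell. Cebpb, an early inducer of fat cell differentiation that inflammation also induces, was at 740 ± 140 CPM in FRC, 151 ± 31.2 in RPF steady and 632 ± 51.2 in RPF depleted. Cebpd, its companion, was at 947 ± 48.8, 193 ± 47.0 and 902 ± 209 CPM. So these 2 were lower in RPF steady than in FRC (edgeR adjusted p = 3.91e-05 and 7.79e-05) and rose 4.19-fold and 4.68-fold on depletion (edgeR adjusted p = 0.000152 and 0.000191), while Cebpa did not pass either test. Klf5, which acts with them, rose as well. Zfp423, a marker of cells committed to the fat lineage, was at 20.6 ± 6.87 CPM in FRC and 58.5 ± 23.2 in RPF steady, and fell 5.10-fold on depletion (edgeR adjusted p = 0.00712). Zfp467 showed the same calls. Klf4 was 36.2-fold lower in RPF steady than in FRC (edgeR adjusted p = 0.000223). Ebf1, Ebf2 and Ebf3, early B cell factors that act upstream of Pparg in fat precursors, were among the 7 and are named after their values were seen. Ebf1 was at 171 ± 25.5 CPM in FRC and had 12 counts over RPF steady, and Ebf2 had 1067 counts over FRC and 0 over RPF steady, at least 475-fold lower if the group is set to 3 counts.

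Of 11 tested genes of the lipoprotein lipase system, 0 were called higher and 2 lower in RPF steady than in FRC. These were Lmf1 and Lmf2, which help the lipase fold, by 1.59-fold and 1.51-fold (edgeR adjusted p = 0.0285 and 0.0199), differences far smaller than that of Lpl. With upper quartile scaling 0 of the 11 were called lower, and without TMM factors 3 were called higher and 0 lower. After depletion 2 rose and 1 fell. Angptl4, an inhibitor of lipoprotein lipase, was at 438 ± 141 CPM in RPF steady and 1086 ± 69.1 in RPF depleted, a 2.48-fold rise (edgeR adjusted p = 0.0226). Furin, a protease that cleaves the lipase, rose 1.85-fold. Sel1l, needed for the lipase to leave the endoplasmic reticulum, fell 1.52-fold (edgeR adjusted p = 0.0211).

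Of 12 tested genes of fatty acid uptake and activation, 2 were called higher and 2 lower in RPF steady than in FRC, and 2 and 2 after depletion. Cd36, the fatty acid translocase, was the reverse of Lpl. It was at 3.43, 0.785 and 4.15 CPM in FRC, and at 1010, 1075 and 732 CPM in RPF steady. The groups did not overlap, and RPF steady was 334-fold higher (edgeR adjusted p = 1.11e-05). In RPF depleted it was at 1098 ± 70.9 CPM. Cd36 is also made by macrophages and endothelium, whose marker sums are given with Apoe and Fabp4, and their part in the Cd36 values was not tested. Cav1, a caveolar protein, was 23.9-fold lower in RPF steady than in FRC (edgeR adjusted p = 6.86e-06). After depletion Acsl4 and Acsl5, which activate fatty acids, rose 2.79-fold and 2.40-fold, and the transporter Slc27a1 fell 4.70-fold (edgeR adjusted p = 0.00375, 0.000457 and 0.00221).

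Of 14 tested genes of triglyceride and sterol ester synthesis, 2 were called higher and 1 lower in RPF steady than in FRC. Agpat2, the acyltransferase whose loss causes lipodystrophy, was 2.66-fold and Lpin2 16.4-fold higher, while Gpam, the first enzyme of the pathway, was 2.13-fold lower (edgeR adjusted p = 6.46e-05, 0.00072 and 0.00651). After depletion 3 rose and 3 fell. Soat1, which esterifies cholesterol, went from 53.7 ± 5.68 to 133 ± 1.01 CPM, a 2.48-fold rise (edgeR adjusted p = 0.000171), and Agpat5 and Agpat2 rose 2.84-fold and 1.61-fold. Dgat1, which makes triglyceride, Gpam and Lpin1 fell 2.7-fold, 2.15-fold and 4.33-fold (edgeR adjusted p = 0.0135, 0.0079 and 0.0216). Without TMM factors 4 were called higher and 0 lower in RPF steady against FRC.

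Of 8 tested genes of droplet coat and assembly other than Plin1 and Plin2, 0 were called higher and 2 lower in RPF steady than in FRC. Hilpda, a droplet protein that inhibits the lipase ATGL, was at 82.6 ± 14.7 CPM in FRC and 17.4 ± 6.81 in RPF steady, and rose 5.16-fold to 89.9 ± 27.9 CPM on depletion (edgeR adjusted p = 0.000978 and 0.00107). Bscl2, which encodes the droplet assembly factor seipin, was 2.46-fold lower in RPF steady than in FRC (edgeR adjusted p = 5.45e-05). Plin3, another perilipin, fell 2.65-fold on depletion from 189 ± 5.97 to 71.5 ± 17.4 CPM (edgeR adjusted p = 0.000667), and Aup1 rose 1.64-fold. Without TMM factors 2 were called higher and 2 lower in RPF steady against FRC.

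Of 10 tested lipolysis genes, 2 were called higher and 1 lower in RPF steady than in FRC, and 0 rose and 1 fell on depletion. G0s2, another inhibitor of ATGL, was 16.8-fold higher in RPF steady than in FRC, at 290 ± 17.4 against 17.3 ± 8.01 CPM (edgeR adjusted p = 2.1e-05). Lipa, the lysosomal acid lipase, was 2.29-fold higher in RPF steady than in FRC and fell 1.76-fold on depletion (edgeR adjusted p = 3.07e-05 and 0.000504). Abhd6, a monoacylglycerol lipase, had 651 counts over FRC and 1 over RPF steady.

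Of 13 tested fatty acid synthesis genes, 1 was called higher and 4 lower in RPF steady than in FRC (3 and 3 without TMM factors), and 1 rose and 4 fell on depletion. Scd1, the stearoyl-CoA desaturase of fat and liver, was 8.17-fold lower in RPF steady (edgeR adjusted p = 0.00258), and its relative Scd2 fell 4.52-fold on depletion, from 151 ± 9.95 to 33.3 ± 8.20 CPM (edgeR adjusted p = 0.000485). Fasn, the fatty acid synthase, was at 185 ± 31.5, 93.2 ± 22 and 183 ± 46.4 CPM in FRC, RPF steady and RPF depleted (edgeR adjusted p = 0.0157 against FRC and 0.0202 on depletion). Thrsp, a lipogenic protein of fat and liver, had counts only in RPF steady among these 9 libraries, at 2.83, 4.92 and 5.42 CPM.

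Of 8 tested genes of apolipoproteins and lipid efflux other than Apoe and Apod, 0 were called higher and 5 lower in RPF steady than in FRC, and 0 rose and 3 fell on depletion. Clu, the apolipoprotein clusterin, was at 5100 ± 819 CPM in FRC and 38.0 ± 6.67 in RPF steady, 134-fold lower (edgeR adjusted p = 9.78e-07). Pltp, the phospholipid transfer protein, Abca1, the cholesterol exporter, and Lrp1, a receptor that takes up APOE, were lower in RPF steady than in FRC and fell again on depletion. Pltp went from 414 ± 92.8 to 163 ± 22.1 and 60.9 ± 2.66 CPM, and Lrp1 from 6450 ± 940 to 2678 ± 609 and 1459 ± 265 CPM. The order of the groups in both was that of Apoe.

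**Figure D4:**
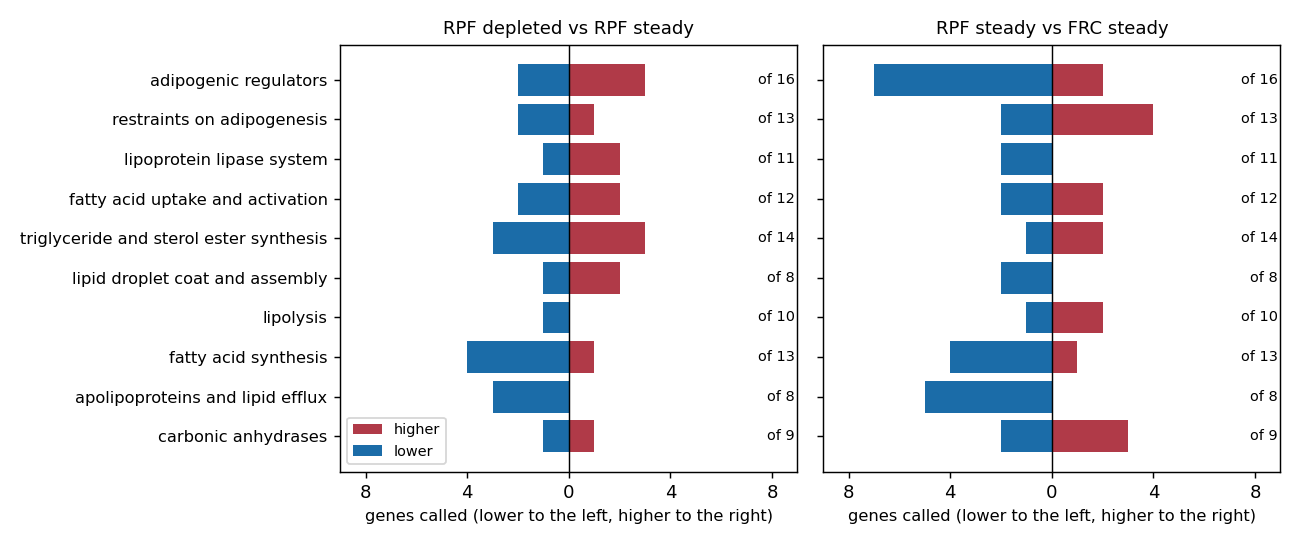
Number of tested genes called higher (right) or lower (left) in each pathway list outside the 9 genes, for RPF depleted against RPF steady and RPF steady against FRC. Apolipoproteins and lipid efflux have bars to the left only, with 3 and 5 of 8 genes lower.

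**Figure D5:**
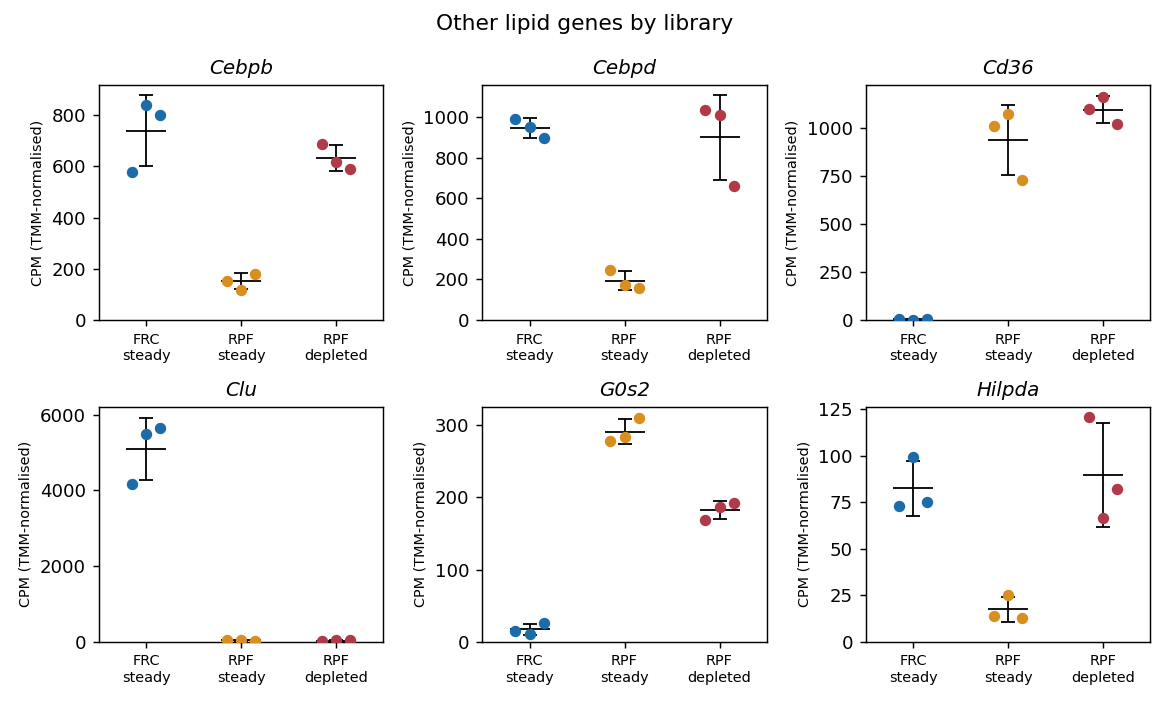
TMM-normalised CPM (vertical axis, linear from 0) by library (points) with mean and SD for Cebpb, Cebpd, Cd36, Clu, G0s2 and Hilpda in the 3 groups. RPF steady is the lowest group for Cebpb, Cebpd and Hilpda and the highest for G0s2, and Cd36 is near 0 in FRC alone.

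For each of the 9 genes, the 2 genes whose log2 CPM (prior count 2) correlated best over the 9 libraries were read among 8568 or 8569 genes with a mean of at least 10 CPM, as a description. Most of these values reflect the difference between 3 groups that share depth and scaling. Lpl was most like Col1a1 and Cpxm1 (Pearson r = 0.994 and 0.993), and Apoe most like Gxylt2 and Fbln2 (0.996 and 0.994). Apod was most like Srxn1 and Rgs5 (0.994 and 0.993), Plin1 like Rtn1 and Hhip (0.987 and 0.986), Plin2 like Rreb1 and Lgmn (0.962 and 0.946), and Car3 like Sirt1 and Ctsl (0.994 for both). Rtn1 and Hhip, like Plin1, had most of their RPF counts in depleted replicate 3, at 45 and 20 counts there. Fabp4 was most like Ext1 and Mob3c (0.949 and 0.935), and Cebpa like Atg16l2 and Arf5 (0.936 and 0.921). Pparg was most like Rpp25l and Armc7 (0.986 and 0.981), which also had few counts in FRC replicate 2, at 6 and 1 beside 381 and 411 in FRC replicate 1. With a prior count of 0.5, at least 1 of the 2 genes changed for Fabp4, Plin1, Car3, Apoe and Apod.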

How the data were processed

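The authors deposited raw read counts per gene, which were used as they are for 9 libraries. For the upstream steps, the submitters' processing notes list the build mm10 and the tools STAR 2.5.3a, HTSeq 0.6.1p1, Bowtie2 2.2.8 and cutadapt 1.10. Their roles, the strand setting and the annotation are not stated there. Each gene's median transcript length (bases, authors' table) served only for CPM per kilobase. The 24 unused per-sample columns (normalized values, and raw counts outside the sample list) and the authors' fold changes were left out. Of 27370 genes, 881 had no count. Labels carry no replicate numbers, so replicates were numbered in accession order, and no label names a batch.

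A model with 1 term per group was fitted to all 9 libraries in R 4.3.3 with edgeR 4.0.16 (filterByExpr, TMM, robust quasi-likelihood, 6 residual degrees of freedom), and two-sided p-values were adjusted over 15103 genes. SE is the absolute log2 fold change over the root of F. Where a group had 0 counts, folds are bounds against 3 counts over the group. With 1 to 3 counts, ratios have 95% counting intervals. Intervals and limits from counts cover counting error only. The p-values measure the spread between libraries of 2 pooled mice. The other settings were upper quartile and RLE scaling, no filter, a 1 CPM filter, DESeq2 1.42.0, limma-voom (limma 3.58.1), no robust prior, only the compared groups, a term for libraries without Y-linked reads and each library left out. Scaling by the total count alone was tried after the data had been seen. The fit was tested on simulated counts with known changes. Libraries of a group differed by far more than counting noise (chi-square per degree of freedom 72.4 to 131), so none was a copy.

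Named genes were the 9 members, of each list the 3 genes with the lowest p among those called in RPF depleted against RPF steady and in RPF steady against FRC, members of counts of 5 or fewer, the most abundant and absent markers, and the 2 nearest patterns. Members, lists and rules were chosen with earlier results of these data known. Genes of the lists that are not in the table were not analysed here. Plots were made in matplotlib 3.10.9 under Python 3.11.15.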

Additional observations from a re-analysis of the deposited data

How the results depend on the processing

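For the 9 genes in 3 comparisons, 510 alternative values were computed, of which 487 kept the direction and the side of the threshold, 15 passed it newly, 1 no longer passed and 7 changed sign. The calls of Lpl, Plin1, Car3, Apoe and Apod against FRC and of Apoe on depletion were kept in every alternative run. The changes of sign were in RPF depleted against RPF steady and concerned no called gene. Leaving out each library gave -0.50 to 0.17 for Pparg (positive without RPF steady replicate 3 or depleted replicate 1 or 3), -0.044 to 0.41 for Cebpa (negative without RPF steady replicate 2 or depleted replicate 1) and -1.002 to 1.36 for Apod (negative without depleted replicate 1). Apod was at -0.63 in limma-voom. The cause was not tested.

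Over all genes, DESeq2 called 2310 lower on depletion against 1505 in edgeR. Without TMM factors 3935 were higher and 1342 lower in RPF steady against FRC, in place of 1734 and 2174, and 3933 were higher in RPF depleted against FRC in place of 2557. The share called higher then was 74.6% against 44.4% in RPF steady against FRC, 64.9% against 47.4% in RPF depleted against FRC, and 41% against 52.6% on depletion. Leaving out each library gave 1176 to 1729 higher and 968 to 1561 lower on depletion, the lowest count being that without RPF steady replicate 2. It gave 1168 to 1583 higher and 1620 to 2123 lower in RPF steady against FRC, and 2009 to 2353 higher and 2283 to 2681 lower in RPF depleted against FRC. Of 1140 alternative counts for the 10 lists, 1020 were within 1.5 times the count given.

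No paired analysis was possible because the labels carry no replicate numbers and do not say which FRC and RPF libraries share mice. Depth limits Plin1, Car3 and Apod in RPF, where 1 to 34 counts per group leave wide intervals.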

Other observations

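Restraints on fat cell differentiation went both ways. Of 13 tested, 4 were called higher and 2 lower in RPF steady than in FRC, and 1 rose and 2 fell on depletion. Nr2f2, an orphan nuclear receptor that holds back adipogenesis, was at 80.2 ± 4.18 CPM in FRC, 188 ± 12.1 in RPF steady and 147 ± 3.36 in RPF depleted (SD, n = 3; edgeR adjusted p = 4.05e-05 between RPF steady and FRC and 0.0408 on depletion). Hes1, a Notch target, was at 50.2 ± 15.4, 170 ± 17.4 and 91.0 ± 12.8 CPM and was called in the same directions (edgeR adjusted p = 0.000592 and 0.0224). Sox9 was at 90.5 ± 31.3 CPM in FRC and 2.42 ± 1.48 in RPF steady (edgeR adjusted p = 8.12e-05). Klf2 was 5.87-fold lower in RPF steady than in FRC and rose 2.65-fold on depletion (edgeR adjusted p = 0.000536 and 0.0141).

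Carbonic anhydrases other than Car3 went both ways. Of 9 tested, 3 were called higher and 2 lower in RPF steady than in FRC, and 1 rose and 1 fell on depletion. Car6, the secreted isoform, was an FRC gene like Car3 but with another order of libraries, at 289, 217 and 42.6 CPM in FRC replicates 1, 2 and 3 and 7 counts over RPF steady (edgeR adjusted p = 4.91e-05). Car8 had 1188 counts over RPF steady, 1 over RPF depleted and 0 over FRC. Car13 was at 36.6 ± 14.6, 5.0 ± 1.11 and 34.5 ± 1.62 CPM in FRC, RPF steady and RPF depleted, and rose 6.90-fold on depletion (edgeR adjusted p = 0.000484). Car1 and Car2, which red blood cells contain in quantity, were at 64.3 ± 11.1 and 198 ± 11.6 CPM in RPF steady against 0.132 ± 0.149 and 1.83 ± 2.43 in FRC. Beside them, 10 erythroid markers, of which Car1 is one, summed to 0.567 to 99.2 CPM in FRC, 250 to 880 in RPF steady and 465 to 773 in RPF depleted, and their part in the Car1 and Car2 values was not tested.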
